A study of Arabidopsis thaliana with 4 samples.

Results

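The regions described here are stretches of the Arabidopsis genome that were bound by the transcription factor KANADI1 (KAN1) and that lie between 2 genes transcribed away from each other. They were chosen by a measured value and by position. A region was taken when the mean of the reads of both ChIP libraries was at least 3 times the summed control reads, when it lay on 1 of the 5 chromosomes and the deposited table named no gene as overlapping it, when the gene on its left was on the minus strand and the gene on its right on the plus strand, and when its centre was less than 3000 bp from at least 1 of these genes. Of the 22109 called regions, 22103 lay on the chromosomes and 4166 of these (18.8%) reached the ratio of 3. Of those 4166 regions, 1328 were divergent bound regions by this rule, 1805 lay between tandem genes within the same distance and 356 between convergent genes. Because the reads chose the regions, their ratios are given as a description without a test. The other comparisons are also descriptive and were not tested.

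KAN1 belongs to the KANADI group of GARP transcription factors, which act mostly as repressors and specify the abaxial (lower) side of lateral organs and the outer side of the vasculature. The sequence between divergent genes is upstream of both of them. A factor bound there therefore lies in a position from which either promoter, both or neither could be controlled, and position alone does not say which.

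The chromatin came from 35S:FLAG-GR-KAN1 plants in the Columbia-0 ecotype, precipitated through the FLAG epitope (KAN1 ChIP, 2 libraries), and was set against 2 control libraries of Columbia-0. All 4 samples came from plants kept for 10 days in liquid culture and given dexamethasone for 45 min, which moves the fusion with the glucocorticoid receptor into the nucleus. The labels name the antibody of both controls as input, while the methods of the study describe a single control library from Col-0 chromatin. The 35S promoter drives the fusion in most tissues, so the bound regions are those of an overexpressed protein in whole seedlings and not of KAN1 in its own cells. Within the called regions on the chromosomes, KAN1 ChIP 1 had 2082943 reads, KAN1 ChIP 2 1036664, control 1 661648 and control 2 13441. The full depth of the libraries is unknown. The reads were not scaled, so a ratio of 3 is not a 3-fold enrichment at equal depth, and control 2 added little to any denominator. The paper describes the ChIP-seq experiments as independent, while the labels do not say whether the libraries of a group came from separate cultures.

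The KAN1 motif searched was VGAATAW, which is GAATA with any base but T before it and either A or T after it, on both strands. Stretches of the regions the results turn on follow, to show how the copies lie, written 5′ to 3′ on the plus strand with the motif copies in capitals. The bases come from the RefSeq assembly TAIR10.1 at the deposited TAIR10 coordinates. Both builds were compared through 275 transcripts that the study's supplement lists with TAIR10 positions, and the first 20 bases matched TAIR10.1 at the listed position in all 275.
AT5G14110/AT5G14120, chr5:4554922-4555071: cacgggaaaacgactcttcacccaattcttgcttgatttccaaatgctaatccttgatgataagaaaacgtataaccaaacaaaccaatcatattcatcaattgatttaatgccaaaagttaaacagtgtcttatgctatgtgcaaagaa
AT3G19850/bHLH121, chr3:6902126-6902325: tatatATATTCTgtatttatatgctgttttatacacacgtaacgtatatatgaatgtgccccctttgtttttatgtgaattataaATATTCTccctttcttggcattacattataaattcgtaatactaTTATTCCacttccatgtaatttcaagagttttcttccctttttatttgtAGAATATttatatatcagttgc
p24delta5/DREB26, chr1:7696104-7696253: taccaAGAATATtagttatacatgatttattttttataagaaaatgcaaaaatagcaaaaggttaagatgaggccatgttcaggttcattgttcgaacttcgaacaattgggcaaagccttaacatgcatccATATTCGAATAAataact
PFT1/AT1G25550, chr1:8975983-8976232: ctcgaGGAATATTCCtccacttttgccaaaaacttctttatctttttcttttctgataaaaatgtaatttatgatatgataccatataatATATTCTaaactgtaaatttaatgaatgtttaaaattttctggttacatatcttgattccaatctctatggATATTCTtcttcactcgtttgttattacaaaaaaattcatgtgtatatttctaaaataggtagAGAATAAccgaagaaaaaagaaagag
SRG3/KUP3, chr3:350029-350328: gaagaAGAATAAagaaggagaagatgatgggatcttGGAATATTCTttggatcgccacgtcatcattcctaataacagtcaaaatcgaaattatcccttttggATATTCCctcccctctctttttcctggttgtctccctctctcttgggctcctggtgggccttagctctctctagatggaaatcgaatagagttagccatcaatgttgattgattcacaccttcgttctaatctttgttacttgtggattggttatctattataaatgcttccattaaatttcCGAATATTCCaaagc
KAN1/AT5G16567, chr5:5418180-5418329: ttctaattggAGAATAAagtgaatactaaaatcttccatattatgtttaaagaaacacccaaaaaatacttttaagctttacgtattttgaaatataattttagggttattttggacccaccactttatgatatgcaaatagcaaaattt
KAN3/AT4G17700, chr4:9851394-9851543: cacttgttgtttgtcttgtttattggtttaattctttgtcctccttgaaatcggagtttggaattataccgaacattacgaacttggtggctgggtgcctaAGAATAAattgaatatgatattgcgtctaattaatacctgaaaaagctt
The strongest region of all, between AT5G14110 and AT5G14120, held no copy anywhere in its length, and its middle 150 bases are shown. The stretch beside bHLH121 held all 4 copies of its region, 1 on the plus and 3 on the minus strand. Beside DREB26 there were 3, of which a pair on opposite strands overlapped near the right-hand end. The stretch upstream of AT1G25550 held 5 of the 9 copies of that region, which opened with a GGAATAT on either strand in overlap. That between SRG3 and KUP3 held all 6 of its copies, 3 on each strand and in part overlapping in the same way. The stretches upstream of KAN1 itself and of KAN3 are shown with 1 copy each, which was the only copy of its region at KAN1 and 1 of 2 at KAN3.

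Read numbers were higher in KAN1 ChIP 1 than in KAN1 ChIP 2 in all 1328 regions. The regions had a median of 203 reads in ChIP 1 (18 to 1095), 100 in ChIP 2 (5 to 609), 35 in control 1 (4 to 106) and 1 in control 2 (0 to 7). Control 2 had no read in 602 of them. The median number of ChIP 1 reads was 2.02 times that of ChIP 2 region by region, close to the ratio of the totals of the libraries. The mean ratio had a median of 4.17, with quartiles of 3.48 and 5.29 and a maximum of 15.2. In ChIP 1 alone the median ratio was 5.58 (3.5 to 21.1), and in ChIP 2 alone it was 2.77 (1 to 9.87). The threshold was reached in both libraries in 567 of the regions (42.7%), where over all called regions 7.37% did so. This share was 39.4% for tandem and 37.6% for convergent bound regions. As ChIP 2 had fewer reads and was not scaled, a ratio of 3 was harder to reach in it than in ChIP 1. A ChIP 2 ratio below 3 is to be read with that in mind, here and below. Many regions were near the threshold, with 596 (44.9%) under a mean ratio of 4, while 397 reached 5, 216 reached 6, 72 reached 8 and 27 reached 10.

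**Figure D1:**
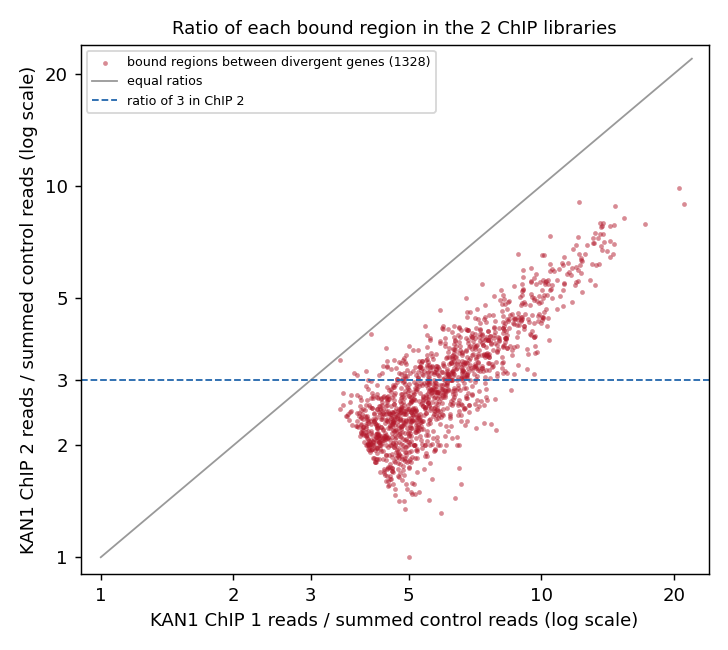
Ratio of KAN1 ChIP reads to summed control reads in each of the 1328 bound regions between divergent genes, ChIP 1 on the x axis and ChIP 2 on the y axis, both on a log scale. Every point lies below the line of equal ratios, and 567 points lie at or above the dashed line at a ratio of 3 in ChIP 2.

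At the edge of the rule, the regions just inside the ratio were that beside GA2OX6, a gibberellin-inactivating oxidase gene, and that between AT1G08580 and AT1G08590, both with a mean ratio of 3. Those just outside, between AT4G36550 and AT4G36560 and between LSU2 and EMB2820, had 2.99. For distance, the last regions inside lay 2972 bp from GTE7 and 2965 bp from AT5G65660, and the first outside lay 3004 bp from MYB73 and 3010 bp from AT5G40460. A further 99 bound regions between divergent genes lay farther than the limit from both genes and are not included. The values on either side of each edge were nearly equal.

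The highest ratio was found between AT5G14110, encoding a protein of unknown function, and AT5G14120, encoding a major facilitator superfamily transporter. This intergenic region, chr5:4554768-4555225 (TAIR10), had 782 reads in ChIP 1 and 375 in ChIP 2, against 38 in control 1 and 0 in control 2, a mean ratio of 15.2 ± 7.57 (SD, n = 2 ChIP libraries). Its centre was 614 bp from the left and 952 bp from the right gene, so that both starts were within 1 kb.
The second was between AT3G19850, an NPH3-family gene, and bHLH121, a basic helix-loop-helix factor known from iron homeostasis. It covered chr3:6902019-6902471 and had 969 and 411 ChIP reads, against 44 and 2 control reads, and a mean ratio of 15 ± 8.58 (SD, n = 2). In both regions ChIP 1 gave more than 2 times the reads of ChIP 2, which is the spread the SD shows. The ratios are unscaled, and over all called regions ChIP 1 had 2082943 reads and ChIP 2 1036664. The SD therefore takes in this difference in totals and does not measure the variation between replicates at equal depth. In both regions the reads of either ChIP library were above both controls.
The third lay 318 bp upstream of DREB26, an AP2/ERF transcription factor gene, and 3779 bp from p24delta5, which encodes a cargo receptor of the early secretory pathway. It covered chr1:7695975-7696460 and had 656 and 300 ChIP reads, against 37 and 1 control reads (mean ratio 12.6). The next region, with 648 and 344 ChIP reads against 39 and 3 control reads (mean ratio 11.8), lay 924 bp upstream of RPT2, which acts in phototropic signalling. The fifth lay 2756 bp from AT2G01680, an ankyrin repeat gene, and 5527 bp from the nudix hydrolase gene NUDT17, with 295 and 177 ChIP reads against 20 and 0 control reads (mean ratio 11.8). The 5 strongest regions thus neighbour a transporter gene, transcription factor genes, a light-signalling gene and genes of other functions, and in each of them the lower ChIP library had more than 7 times the summed control reads.

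No region was equally near to both genes, so each had a nearer and a farther one. The nearer gene was at a median of 756 bp (quartiles 286 and 1291), the farther one at 2502 bp, and the flanking genes were a median of 3394 bp apart (228 to 16053). The nearer gene was within 200 bp for 248 regions (18.7%), within 500 bp for 477 (35.9%), within 1 kb for 820 (61.7%) and within 2 kb for 1194 (89.9%). It was the left gene in 657 and the right gene in 671. Measured as a share of the gap, the centre lay at a median of 24.6% of the way from the nearer gene. Centres spread evenly over their gaps would give about the same value, so it shows no preference for a place near a gene. Only 161 regions (12.1%) were within 1 kb of both genes, 524 (39.5%) within 2 kb of both and 792 (59.6%) within 3 kb of both. These distances were limited by the rule, which required 1 gene within 3000 bp. In divergent called regions under the ratio of 3, with the same limit, the nearer gene was at a median of 383 bp. The flanking genes of those weaker regions were a median of 2767.5 bp apart.
Distances in the deposited table were measured from the centre of a region to the annotated end of the gene. In the TAIR10.1 annotation the same genes began nearer to the regions by a median of 84 bp on the left and 79 bp on the right, over the 1269 regions whose neighbours could be matched, and the strands were the same in all 1269. By the deposited distances the nearer gene lay within the region's own extent in 221 cases, among them 5 regions longer than their gap, so these reach into a flanking gene although none is named as overlapping. The centre of 189 regions fell inside a gene of that annotation, of which 146 fell in a protein-coding gene, so for these a position upstream of both genes depends on the gene models.

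**Figure D2:**
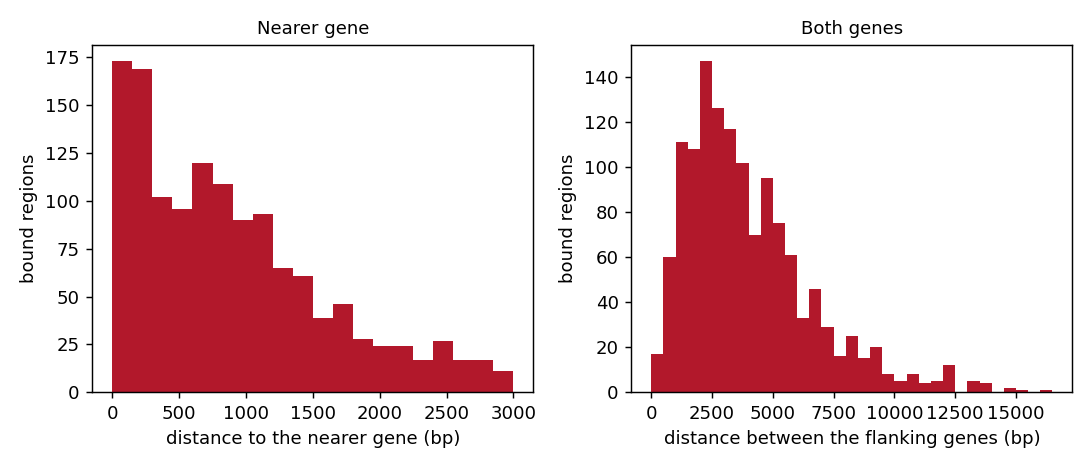
Numbers of bound regions by the distance in bp from their centre to the nearer flanking gene (left panel) and by the distance in bp between both flanking genes (right panel), for the 1328 regions between divergent genes. The median is 756 bp for the nearer gene and 3394 bp for the gap, and 77 regions lie in gaps under 1 kb.

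The shortest gaps are those in which a single bound region fills most or all of the space between both starts. Only 17 regions lay in gaps under 500 bp, and 77 in gaps under 1 kb. The region in the 228-bp gap between AT1G74448 and AT1G74450 had 112 and 63 ChIP reads, against 28 and 0 control reads (mean ratio 3.12). That in the 291-bp gap between AT4G21310 and HSA32, a gene needed for long-term acquired heat tolerance, had 174 and 58 ChIP reads, against 36 and 0 control reads (mean ratio 3.22). Both ratios were close to the threshold, and ChIP 2 alone was below 3 in both.
The 302-bp gap between LEA14, a late embryogenesis abundant protein gene, and AT1G01471 held a region with 187 and 79 ChIP reads, against 29 and 1 control reads (mean ratio 4.43). The 320-bp gap between AT1G67460, annotated as a minichromosome maintenance family gene, and the protein kinase gene AT1G67470 gave 276 and 189 ChIP reads, against 45 and 1 control reads (mean ratio 5.05). Between TTN1, a tubulin-folding cofactor gene required in embryos, and the transketolase gene AT3G60750, 331 bp apart, there were 170 and 63 ChIP reads, against 37 and 0 control reads (mean ratio 3.15). Of these 5 short gaps only the region of AT1G67460 and AT1G67470 reached the threshold in each ChIP library. In the TAIR10.1 annotation the centres of the regions beside AT1G74450 and AT3G60750 fell inside these genes. Over all 77 regions in gaps under 1 kb the median ratio was 3.84, against 4.15 in gaps of 1 to 2 kb and of 2 to 4 kb, 4.25 in gaps of 4 to 8 kb and 4.13 in longer ones.

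The 1328 regions lay in 965 gene pairs. A pair held 1 region in 692 cases, 2 in 207, 3 in 47, 4 in 14 and 5 in 5. The 273 pairs with several regions contained 636 of them, with centres of neighbouring regions a median of 1091 bp apart (299 to 10040), and the strongest region of a pair had a median of 1.31 times the ratio of the next. In 122 of these 273 pairs the strongest region was the one nearest to a gene. Most of these pairs held 2 regions, so about such a count would also arise if strength and nearness were unrelated. Regions of a pair share their flanking genes and are not independent of each other.
In the 12104-bp gap between GATL3, a galacturonosyltransferase-like gene, and RAV1, a growth-repressing B3-domain factor, the regions taken lay within 3000 bp of either end, as the rule requires. Those 1000 and 2269 bp from GATL3 had mean ratios of 4.59 and 5.45, and those 2526, 1274 and 222 bp from RAV1 had 6.44, 7.39 and 4.07. The strongest had 685 and 290 ChIP reads, against 65 and 1 control reads. The centre of the region 2269 bp from GATL3 fell inside AT1G05003 in the TAIR10.1 annotation.
In the gap of 12345 bp between the homeodomain gene BLH1 and EDA12, mean ratios were 3.81 and 3.23 at 1060 and 1550 bp from BLH1. They were 4.30, 6.02 and 7.34 at 2328, 1499 and 1089 bp from EDA12. The strongest, with 343 and 171 ChIP reads against 33 and 2 control reads, was nearer to EDA12, a gene named for an embryo sac phenotype, than to BLH1. The middle of these long gaps is left out by the rule, since a region over 3000 bp from both genes was not taken. The paper lists a further bound site upstream of RAV1 that falls in that middle part.
The gap between TMAC2, which encodes an ABI5-binding protein, and PTF1 (TCP13), a TCP transcription factor gene active in leaf development, is shorter, at 4518 bp. Its strongest region was 201 bp from TMAC2, with 356 and 200 ChIP reads against 34 and 0 control reads (mean ratio 8.18), and the region 100 bp from PTF1 had 328 and 196 ChIP reads against 48 and 0 control reads (mean ratio 5.46). The regions between them had mean ratios of 4.78, 5.56 and 3.65. Bound regions thus lay near both gene starts and in the space between. In the TAIR10.1 annotation the centres of the regions nearest to TMAC2 and PTF1 fell inside these genes. Their position upstream therefore depends on the gene models. The 2 other pairs with 5 regions were AT5G56865 and BGAL4, with ratios of 3.22 to 4.94, and AT2G23171 and CYP96A1, with ratios of 3.03 to 6.36.
Among the pairs with 4 regions, 2 are given because of their genes, a choice made after their values were seen. Between CIPK12, a calcineurin B-like-interacting kinase gene, and BIN2, the kinase that represses brassinosteroid signalling, the region 1729 bp upstream of BIN2 had 177 and 103 ChIP reads, against 13 and 0 control reads (mean ratio 10.8). Beside IAA2, an auxin-inducible Aux/IAA repressor gene, the regions had mean ratios of 6.68, 5.33, 5.26 and 5.03 at 171, 1261, 2530 and 2989 bp. The opposite gene was AT3G23040, which was the nearer gene of the regions at 2530 and 2989 bp (1749 and 1290 bp away). The centre of the region at 171 bp fell inside IAA2 in the TAIR10.1 annotation.

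**Figure D3:**
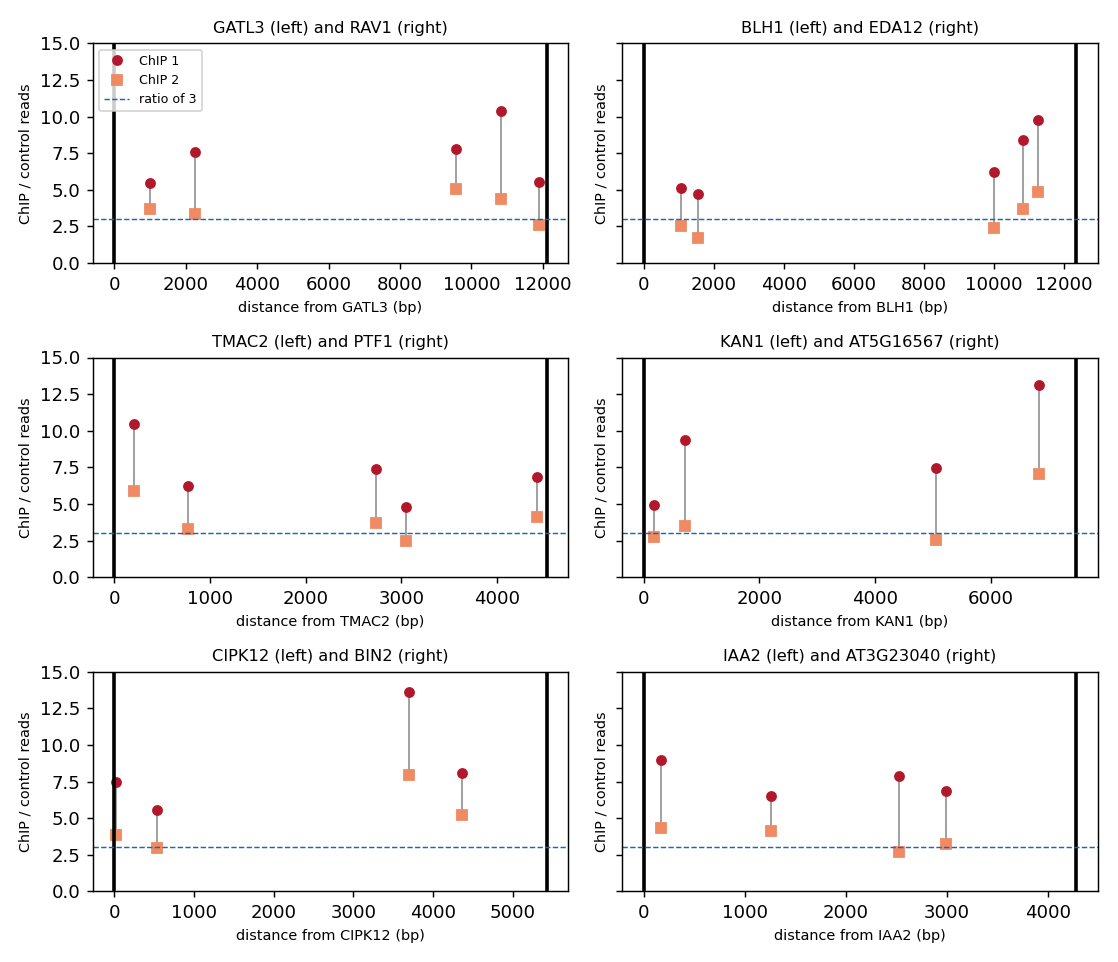
Position of each bound region (x axis, distance in bp from the left gene) and its ratio of ChIP reads to summed control reads (y axis) in ChIP 1 (circles) and ChIP 2 (squares) for 6 gene pairs with 4 or 5 regions, with the gene ends as thick vertical lines. The regions drawn in the 12104-bp and 12345-bp gaps sit within 3000 bp of either end, as the rule requires. The highest point of the KAN1 panel, 13.1 in ChIP 1, is 6830 bp from KAN1.

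A copy of VGAATAW was present in 923 of the 1328 regions (69.5%), with 1564 copies in all. To compare groups of different region size, 300 bases at the centre were used. A copy was found there in 66.6% of the divergent bound regions, against 65.1% of the tandem and 62.4% of the convergent bound regions. Divergent regions called under the ratio of 3 had one in 49.5%, all called regions in 50.3% and successive 300-base windows of the chromosomes in 27.8%. The GC content of the centre was a median of 32% in the divergent bound regions and in the tandem ones, and 32.3% in the divergent regions under the threshold. The 3 orientations thus gave similar shares, and the shares of the bound regions were above those of weaker called regions at a like base composition. The study derived this motif from its own bound regions, so its presence here is not independent evidence.
Copies were concentrated at the centre. They numbered 4.77 and 4.97 per kb in the 50 bases on either side of it and 1.60 to 1.66 per kb at 150 to 200 bases from it, and 1054 of the 1564 copies (67.4%) were closer to the centre than to an end of the region. In 518 regions a copy lay within 50 bp of the centre. Copies had no preferred strand relative to the nearer gene, 771 (49.3%) being on its strand. Of the 6 words, AGAATAA made up 30.3% of the copies (27.3% of the copies in the chromosomes), AGAATAT 23.8% (27.4%), GGAATAT 15.2% (13.7%), GGAATAA 11.6% (12.4%), CGAATAT 11.1% (10.1%) and CGAATAA 8.06% (9.15%).

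**Figure D4:**
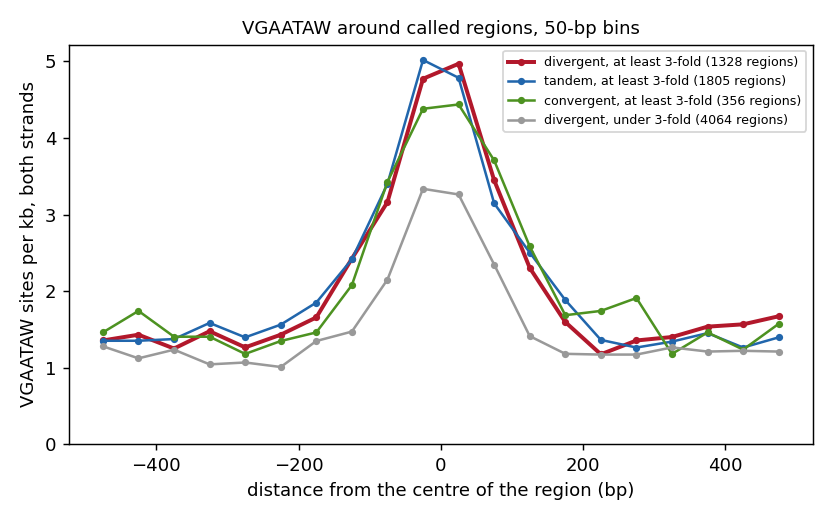
Copies of VGAATAW per kb on both strands (y axis) in 50-bp bins of the distance in bp from the centre (x axis), for divergent bound regions (red), tandem (blue) and convergent (green) bound regions and divergent regions under the ratio of 3 (grey). The divergent bound regions reach 4.97 copies per kb at the centre, the divergent regions under the ratio of 3 stay lower there, and the 3 groups of bound regions overlap.

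Regions with more copies had somewhat higher ratios, with wide overlap. The median mean ratio was 3.94 in the 405 regions without a copy, 4.20 in the 482 with 1, 4.19 in the 302 with 2, 4.60 in the 94 with 3 and 5.09 in the 45 with 4 or more. Larger regions can hold more copies and have more reads, and the part of size in this order was not tested. When the regions were split into 4 equal groups by ratio, the 300 central bases held a copy in 61.1%, 65.7%, 70.5% and 69.3% from the lowest to the highest group.
The region with the most copies, 9, was upstream of AT1G25550, a myb-like transcription factor gene 241 bp away, and of PFT1, a Mediator subunit gene acting in flowering and defence, 1532 bp away. It had the highest number of ChIP 1 reads of all, with 1095 and 609 ChIP reads against 92 and 6 control reads (mean ratio 8.69). The region between SRG3 and KUP3, a potassium transporter gene, held 6 copies in a gap of 605 bp and had 422 and 176 ChIP reads, against 66 and 2 control reads (mean ratio 4.40). The region 471 bp from MRE11, a DNA repair gene, and 1498 bp from CNGC4, a cyclic nucleotide-gated channel gene, held 5 copies and had 605 and 309 ChIP reads, against 47 and 2 control reads (mean ratio 9.33). It was the strongest of 9 regions with 5 copies, whose mean ratios ran down to 3.70. Many copies thus went with high ratios in some regions and with ratios near or below the median in others.

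Other words were searched in the same 300 bases on both strands. The site II word TGGGCC, found in many promoters of genes for ribosomal and cell cycle proteins, was present in 9.19% of the divergent bound regions, against 6.65% of the tandem and 7.87% of the convergent ones, 10.4% of the divergent regions under the threshold and 8.14% of all called regions. Within the divergent bound regions its share was 14.6% where the nearer gene was under 250 bp away, 10.2% at 250 to 500 bp, 8.16% at 500 to 1000 bp, 5.88% at 1 to 2 kb and 7.46% at 2 to 3 kb. Under 250 bp from a gene it was 7.0% in tandem and 10.8% in convergent bound regions. The share was thus highest next to a gene in the divergent and also in the convergent bound regions, where 74 regions lay that near. By these groups of ratio it was present in 10.5%, 9.64%, 8.43% and 8.13% from the lowest to the highest ratio.
The palindrome GAATATTC, which contains GAATAT on both strands and so overlaps VGAATAW where A, C or G precedes it, was present in 3.54% of the divergent bound regions, against 5.32% of the tandem and 1.97% of the convergent ones and 2.72% of all called regions. Its share by group of ratio, lowest first, was 1.81%, 3.01%, 2.41% and 6.93%, and the 47 regions with it had a median ratio of 5.26, against 4.15 in the 1281 without it. The strongest region with the palindrome was that between NUDT17 and AT2G01680. The next lay 71 bp from SPX1, a sensor gene of phosphate status, with 334 and 180 ChIP reads against 29 and 0 control reads (mean ratio 8.86). Its centre fell inside SPX1 in the TAIR10.1 annotation.
The G-box CACGTG was present in 10.4% of the divergent bound regions and 8.17% of all called regions, the auxin response element TGTCTC in 17.2% and 16.9%, the evening element AAAATATCT in 2.18% and 2.30%, and the TATA box word TATAAA in 49.8% and 46.7%. None of these shares was tested.

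The flanking genes numbered 1935, of which 1900 were found in the TAIR10.1 annotation, 1806 of them protein-coding, 40 pseudogenes, 20 tRNA and 18 miRNA genes. Both neighbours were protein-coding for 1147 regions. To describe the flanking genes by function, 7 lists were made from gene symbols. Over all genes, 6887 lay beside a divergent called region within the distance limit and 1935 of these (28.1%) lay beside a bound one. The median gap of the bound regions was 7466 bp for leaf polarity, 5893 bp for meristem and organ growth and 4842 bp for auxin. It was 4025 bp for cell wall, 3598 bp for other hormones, 2889 bp for light and clock and 2752 bp for abscisic acid, against 3394 bp for all. A longer gap can hold more regions, and the part of gap length in the counts of the lists was not tested. A gene beside a region is not shown to be controlled by it.

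Among leaf polarity genes, 6 of the 10 beside a divergent called region (60%, against 28.1% of all genes) lay beside a bound one, with 9 regions. KAN1 itself was flanked by 4 of them in the 7466-bp gap to AT5G16567. The region 173 bp from KAN1 had 211 and 118 ChIP reads, against 42 and 1 control reads (mean ratio 3.83), and that 707 bp from it 159 and 60 ChIP reads, against 17 and 0 control reads (mean ratio 6.44). Another was 5046 bp from KAN1 (171 and 59 ChIP reads, against 22 and 1 control reads, mean ratio 5). The strongest, at chr5:5418091-5418418 with 354 and 190 ChIP reads against 26 and 1 control reads (mean ratio 10.1), was nearer to the opposite gene, 636 bp from AT5G16567 and 6830 bp from KAN1. The plants carry extra copies of KAN1 sequence in the transgene. Of these regions only that 173 bp from KAN1 had its centre inside KAN1 in the TAIR10.1 annotation. Whether any reads of these regions came from the transgene was not tested.
KAN3, a second KANADI gene, had a region 764 bp upstream with 373 and 134 ChIP reads, against 41 and 2 control reads (mean ratio 5.90). AS2, which promotes the adaxial side and is opposed by KANADI genes, had one at chr1:24396825-24397302, 1079 bp upstream with 355 and 180 ChIP reads, against 41 and 2 control reads (mean ratio 6.22) and no copy of VGAATAW. The opposite gene there, KOR2, is an endoglucanase-family gene 1703 bp away. The paper reports several bound regions at AS2 and finds the motif only in that within the untranslated leader, which is outside the present set. In the KAN3 region and the AS2 region given here each ChIP library had over 3 times the summed control reads.
The remaining polarity regions were weaker or nearer to the opposite gene. HB-8 (ATHB8), an HD-ZIPIII gene of the vasculature, was 5070 bp from a region with 220 and 83 ChIP reads, against 32 and 1 control reads (mean ratio 4.59), while GATA9 was 1774 bp away. MIR166a and MIR166b, precursors of the miRNA that targets HD-ZIPIII transcripts, were 7156 and 4309 bp from regions with mean ratios of 3.36 and 4.39. The nearer genes of these were the class I HD-ZIP genes HB-7 at 2020 bp and HB-12 at 2575 bp. Neither reached 3 in ChIP 2, and the MIR166a region had 54 and 20 ChIP reads, against 11 and 0 control reads.

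Of auxin transport and response genes, 37 of 84 (44.0%, against 28.1% of all genes) lay beside a bound region, with 47 regions and a median ratio of 4.20. The strongest was in the 611-bp gap between SAUR14 (AT4G38840) and SAUR15, both early auxin-induced genes, with 471 and 255 ChIP reads against 45 and 1 control reads (mean ratio 7.89). In the long gap of 8349 bp between SAUR50 (AT4G34760) and SAUR1 (AT4G34770), a region 1256 bp from SAUR1 had 379 and 226 ChIP reads, against 36 and 3 control reads (mean ratio 7.76). A region beside it, 1677 bp from SAUR1, had 106 and 43 ChIP reads, against 11 and 0 control reads (mean ratio 6.77), and another was 165 bp from SAUR50 (mean ratio 3.44). The 611-bp gap thus held a single region, and the long one had regions near either gene. The centre of the region at 165 bp fell inside SAUR50 in the TAIR10.1 annotation.
Other pairs with both genes on the list were SHY2 and AXR3, Aux/IAA repressor genes, with regions of ratio 4.18 and 3.84, SAUR53 (AT1G19840) and MP, an auxin response factor gene, with a region of ratio 4.50 that was 1394 bp from SAUR53 and 12229 bp from MP, SAUR6 (AT2G21210) and SAUR12 (AT2G21220) with 5.78, and SAUR28 and SAUR27 with 3.50. NPY5, which acts with PINOID-type kinases in organ formation, was 1452 bp from a region with 247 and 126 ChIP reads, against 25 and 0 control reads (mean ratio 7.46). The opposite gene there, AT4G37608, was nearer, at 1070 bp. Ratios lower than that beside NPY5 were found at PIN4 (4.58, 367 bp), ABCB4 (5.55, 1217 bp), ABCB1 (3.05, 8076 bp) and PID (4.24 at 3923 bp, 3.54 at 2390 bp). The opposite gene was nearer at PIN4 (244 bp), ABCB4 (667 bp), ABCB1 (1115 bp) and the stronger PID region (919 bp). At the weaker PID region PID was the nearer gene, the opposite gene being 2452 bp away. The centre of the PIN4 region fell inside PIN4 in the TAIR10.1 annotation. In that annotation the centre of the ABCB4 region fell inside AT2G09780, and that of the SHY2 and AXR3 region of 4.18 inside AT1G04253.

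Meristem and organ growth genes lay beside a bound region in 21 of 48 cases (43.8%, against 28.1% of all genes), with 45 regions and a median ratio of 4.77. Besides PTF1, RAV1 and BLH1, the highest was 693 bp upstream of BLH11, a BEL1-like homeodomain gene, with 284 and 210 ChIP reads against 31 and 1 control reads (mean ratio 7.72). Of the 45 regions, 28 (62.2%) reached 3 in each ChIP library, against 42.7% of all divergent bound regions, and the pairs of PTF1, RAV1 and BLH1 supplied 15 of the 45. RAV2 had 3 regions of 7.28, 7 and 4.77, BRC1, which represses branching, had 7.19 at 5522 bp, WOX1 6.53 at 1129 bp and STM 3.58 at 8351 bp. The opposite gene was nearer in these BRC1, WOX1 and STM regions, at 765, 1047 and 2501 bp. The RAV2 regions of 7.28 and 7 were nearer to the opposite gene STN7, at 2091 and 1108 bp. In ChIP 2 the STM region had a ratio of 1.95.

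Light and clock genes lay beside a bound region in 10 of 20 cases (50%, against 28.1% of all genes), with 13 regions. Between AT1G09520 and PIF3, the strongest had 703 and 343 ChIP reads, against 51 and 0 control reads (mean ratio 10.3), but it was 670 bp from AT1G09520 and 3861 bp from PIF3. The region 258 bp from AT4G27300 and 3031 bp from BBX28, a B-box gene, had 504 and 206 ChIP reads, against 38 and 0 control reads (mean ratio 9.34). The 2 highest of this list were thus nearer to an unlisted gene than to the light-signalling gene. PIL6 (ratio 5.19, 1442 bp) and HFR1 (5.08, 1587 bp), bHLH factors of the shade response, were likewise the farther gene. PHYB (4.54), RVE8 (3.28) and PIF4 (3.46) were the nearer gene, at 408, 135 and 46 bp. In the TAIR10.1 annotation the centres of the RVE8 and PIF4 regions fell inside these genes. In ChIP 2 their ratios were 2.14 and 1.92.

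Of abscisic acid genes 5 of 18 (27.8%) lay beside a bound region, near the share of all genes. The highest ratio was 7.64 for a region 9159 bp from NCED2, a biosynthesis gene, and 1429 bp from AT4G18340. The next was 6.28 for one 193 bp upstream of the kinase gene SNRK2.10, with 464 and 239 ChIP reads against 55 and 1 control reads. SNRK2.10 was listed by its symbol, and its annotation names activation by osmotic stress and not by abscisic acid. The bZIP genes ABF1 and ABF3 had 5.65 and 3.6, and the phosphatase gene HAB1 3.55 at 17 bp. The centre of the HAB1 region fell inside HAB1 in the TAIR10.1 annotation, and that of the ABF1 region inside AT1G07583.

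Genes of other hormones lay beside a bound region in 17 of 41 cases (41.5%, against 28.1% of all genes), with 29 regions and a median ratio of 4.75. The region between NRT1.8, a nitrate transporter gene at 2571 bp, and GA3OX3, a gibberellin biosynthesis gene at 4892 bp, had 364 and 164 ChIP reads, against 23 and 2 control reads (mean ratio 10.6). Upstream of DWF4, the gene of a rate-limiting brassinosteroid hydroxylase, a region at 2349 bp had 518 and 291 ChIP reads, against 39 and 0 control reads (mean ratio 10.4) and 3 copies of VGAATAW. JAZ6, a jasmonate repressor gene, had regions at 1261 bp (615 and 341 ChIP reads, against 47 and 0 control reads, mean ratio 10.2) and at 2079 bp (mean ratio 9.26). These were among the 72 regions with a ratio of at least 8. The JAZ6 region at 2079 bp was nearer to the opposite gene AT1G72460, at 1113 bp.
The cytokinin response regulator gene RR3 (AT2G41310) had 402 and 210 ChIP reads, against 30 and 2 control reads, in a region 558 bp upstream (mean ratio 9.56) and a second with 8.29. Gibberellin receptor genes had 3 regions each, with ratios of 5.30, 4.27 and 3.33 for GID1A and 5.92, 4.08 and 3.81 for GID1B, and the DELLA gene GAI had 5.21, 3.82 and 3.34. The regions lay 99 to 1671 bp from GID1A, 519 to 2462 bp from GID1B and 1259 to 4094 bp from GAI. The opposite gene was nearer for the GID1A region of 4.27 and the GID1B regions of 4.08 and 3.81. It was also nearer for the GAI regions of 3.82 and 3.34 and the RR3 region of 8.29. The centre of the GID1A region at 99 bp fell inside GID1A in the TAIR10.1 annotation.

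Of cell wall genes 7 of 21 (33.3%, against 28.1% of all genes) lay beside a bound region. The 8 regions had a median ratio of 4.05, and 1 of them reached 3 in each ChIP library, that 4317 bp from the xyloglucan-modifying EXGT-A3 (XTH27) gene and 2434 bp from AT2G01840, with 295 and 133 ChIP reads against 28 and 1 control reads (mean ratio 7.38). XTH7 (4.59, 307 bp), XTH33 (4.13, 1134 bp) and CESA6 (4.06, 4311 bp) were below 3 in ChIP 2. The opposite gene was nearer in the CESA6 region, at 1289 bp.

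**Figure D5:**
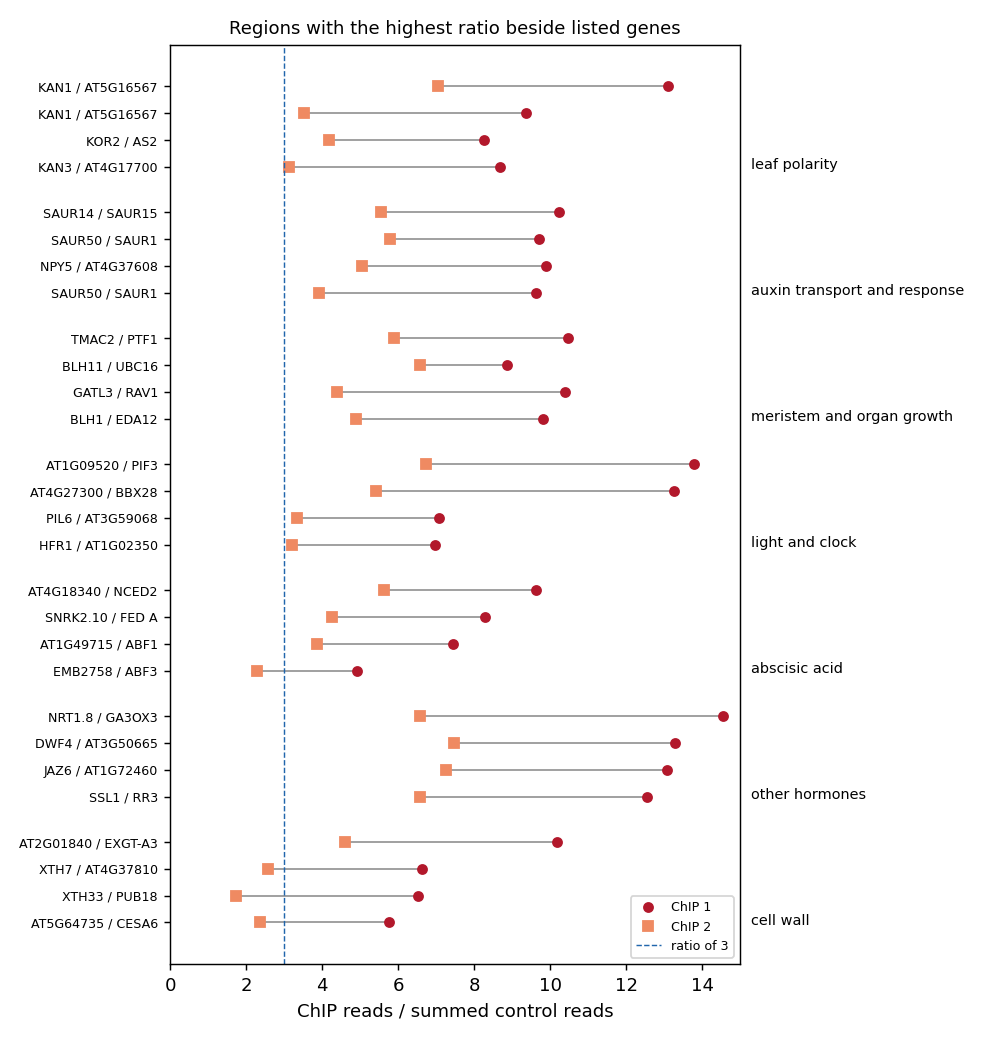
Ratio of ChIP reads to summed control reads (x axis) in ChIP 1 (circles) and ChIP 2 (squares) for the up to 4 regions with the highest mean ratio in each of the 7 gene lists, each row labelled with its left and right gene. ChIP 1 is the higher in every row, and in the regions beside ABF3, XTH7, XTH33 and CESA6 the ChIP 2 point is left of the dashed line at 3.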

How the data were processed

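ChIP-seq was made from 2 KAN1 ChIP and 2 control samples, grouped by the sample titles. The authors mapped the reads to TAIR10 (build from the submitters' processing notes), called regions and deposited estimated counts of reads per region and library without scaling. The deposited table also holds an adjusted p-value (false discovery rate) for each replicate, a log2 rank product and a rank score made by the authors, of which only the false discovery rate was used, as an alternative, and distances in bp to the flanking genes. The number of per-sample columns left unused was 0.

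The ratio was the mean of the ChIP reads divided by the summed control reads. Neighbouring genes, strands and distances were those of the deposited table. Words were searched on both strands of TAIR10.1, at the deposited TAIR10 coordinates and after the comparison of both builds given above, with Python 3.11.15, pandas 2.3.3 and numpy 2.4.6 (figures with matplotlib 3.10.9), and the search was tested on simulated sequences. No test was made, since the ratio had chosen the regions. Median reads of 203 and 100 in the ChIP libraries and 36 in the summed controls limit single ratios. Named regions were the 5 highest ratios, the 5 shortest gaps, the 3 pairs with most regions (ties by summed ratio), those at either side of each threshold, up to 4 per gene list, those with both genes listed and the 3 with most motif copies (ties by ratio). Other genes named from the lists, the miRNA, palindrome and 4-region pairs were chosen after their values were seen. Members and lists were chosen with earlier results of these data known, and genes that shared a symbol with a list by coincidence were removed. Alternatives covered the threshold, control, scaling, replicates, distances, annotation and motif.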

Additional observations from a re-analysis of the deposited data

How the results depend on the processing

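Setting the threshold at 2 gave 2527 regions, at 4 gave 732, and requiring the ratio in each replicate, or the deposited false discovery rate to be 0.05 or less for each library, gave 567 and 406. A distance limit of 1000 bp gave 820 regions and both distances below 3000 bp gave 792. Leaving out 1 library in turn gave 567 to 5392 regions, the lowest without ChIP 1, 2131 without ChIP 2 and the highest without control 1, where control 2 alone let every called divergent region within the limit pass and gave no finite median ratio. The median ratio was 3.07 at a threshold of 2, 5.12 at 4, 5.54 with each replicate and 5.46 with the false discovery rate. The nearer gene was at a median of 665 bp at a threshold of 2, 387 bp with the 1000-bp limit, 642 bp with both distances limited, 659 bp with the reference annotation and 474 to 764 bp without 1 library. The gap was 2460 bp with the 1000-bp limit, 2364 bp with both distances limited, 2938 bp with the reference annotation and 2934 to 3506 bp without 1 library. The share within 1 kb of both genes was 19.6%, 20.3% and 18.2% under those 3 settings and 9.35% to 20.8% without 1 library. The share with VGAATAW was 79.1% with the false discovery rate, 78.7% for GAATAW and 51.8% to 74.4% without 1 library. The share of copies near the centre was 66.5% at a threshold of 2, 66.8% at 4, 67.2% with control 1 alone, 65.8% with the false discovery rate, 69.3% with the 1000-bp limit, 65.7% with both distances limited, 66.8% with the reference annotation, 63.2% for GAATAW and 65.6% to 67.3% without 1 library. The cause of these moves was not tested, apart from the number of regions each setting keeps. The other 59 of 100 values computed moved by less than the spread between the replicates, or within 1.5 times for counts. This spread came from the values without ChIP 1 and without ChIP 2, unscaled, so it takes in their difference in reads. Some settings keep the same regions, as control 1 alone and leaving out control 2 do. The count of 59 is therefore not one of independent checks. No paired analysis was possible because the results come from no test, the ratio having chosen the regions.

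The main limit is depth and scale. The ratio rests on 1 control library of useful size, is not scaled, and both ChIP ratios share it as denominator. ChIP 2 alone was below 3 in most regions, but it had fewer reads than ChIP 1 and the ratios were not scaled. With both ChIP libraries scaled to the same total, 1329 divergent regions reached a mean ratio of 3. Gene models decide which regions count as divergent.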

Other observations

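Among the flanking genes were 18 miRNA genes, examined after the values were known. The region 1098 bp from MIR159b, whose miRNA targets GAMYB-type transcripts, had 690 and 372 ChIP reads, against 49 and 1 control reads (mean ratio 10.6), and the opposite gene AT1G18070 was 1209 bp away. Its centre fell inside AT1G05373 and AT1G05377 in the TAIR10.1 annotation. MIR167a, whose miRNA targets transcripts of auxin response factors, was 1696 bp from a region with 293 and 157 ChIP reads, against 24 and 0 control reads (mean ratio 9.38). MIR393b, whose miRNA targets auxin receptor transcripts, was 1170 bp from a region with a mean ratio of 7.36. The region 1608 bp from MIR160a, which also acts on auxin response factors, had 130 and 67 ChIP reads, against 16 and 1 control reads (mean ratio 5.79).

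A region 3140 bp from MIR406 and 1091 bp from AT1G52190 had a mean ratio of 5.84. Among the further miRNA genes the ratios were 5.27 beside MIR157b, 4.69 beside MIR391, 3.70 beside MIR159a and 3.49 beside MIR398a. The opposite gene was nearer beside MIR157b (1227 bp), MIR391 (167 bp) and MIR398a (27 bp). In the TAIR10.1 annotation the centres of the MIR391 and MIR398a regions fell inside these opposite genes, AT5G60400 and AT2G03440. No test of these values was made.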
